A study of Homo sapiens with 52 samples.

Results

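The comparison described here asks how knockdown of TDP43 changed the neurite to soma ratio of each RNA in human neurons. It rests on 19 of the 52 libraries of the series, which are the libraries of the TDP43 experiment that hold at least 1000 counts. Knockdown soma sample 5, with 541 counts, was left out. The quantity reported is the interaction on the log2 scale: the knockdown effect in neurites (knockdown minus nontargeting) minus the knockdown effect in soma. A positive value is a neurite to soma ratio that is higher in knockdown than in control cells, and it arises equally from a rise in neurites or a fall in soma, so both effects are given beside it.

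The cells were i3Neurons, which are neurons made from the induced pluripotent stem cell line WTC11 with doxycycline as the inducer of differentiation. They were moved on day 3 to culture inserts with pores of 1 µm, which neurites can pass, and were harvested on day 17 as a soma fraction and a neurite fraction. All cells of this comparison came from that line and carried a guide RNA (sgRNA) for CRISPR interference, in which a guide directs a repressor to a gene's promoter. Control cells had a nontargeting sgRNA (5 soma and 5 neurite libraries, samples 1, 2, 4, 5 and 6), and knockdown cells had an sgRNA against TDP43 (4 soma libraries, samples 1 to 4, and 5 neurite libraries, samples 1 to 5). Whether the numbered samples were separate cultures is not stated, so a p-value measures only how much these libraries vary, and that variation may be technical.

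TDP-43, the product of TARDBP, is an RNA binding protein of the nucleus that prefers stretches of alternating U and G. It represses cryptic exons, binds its own 3′ UTR and lowers its own RNA, and is part of RNA granules that travel along neurites. Its loss from the nucleus is a hallmark of amyotrophic lateral sclerosis and of a form of frontotemporal dementia, and STMN2, UNC13A and ELAVL3 are among the RNAs known to depend on it.

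Totals ran from 15719500 to 28902300 counts in soma libraries and from 6834770 to 14506800 counts in neurite libraries, so neurite values rest on fewer counts. The largest difference in composition was the share of 7SL RNA, the RNA of the signal recognition particle. It was 1.51 to 2.64% of counts in soma, 17.2 to 45.7% in nontargeting neurites and 5.65 to 31.7% in knockdown neurites. Nontargeting neurite sample 4 and knockdown neurite sample 2 had the highest 7SL share under their guide. Levels are therefore given as CPM, counts scaled to a library of common size, after TMM scaling, a correction for such differences in composition. Neuron markers were abundant in all libraries (summed 7640 to 12600 CPM), with MAP2 at 1240 to 2190 CPM. Of the markers of other cells, POU5F1, NANOG, CDK1, COL3A1, LUM, DCN, GFAP, AQP4 and OLIG2 stayed between 0 and 1.09 CPM in every library, whereas LIN28A reached 7.99 CPM, MKI67 7.25, SOX2 13.4, MBP 16.9 and COL1A1 4.90. SOX10 reached 4.84 CPM, HES5 2.88, PAX6 2.64, TOP2A 2.61 and SOX1 2.42. Summed mesenchymal markers were higher in knockdown neurites (477 to 571 CPM) than in nontargeting neurites (313 to 377) and in soma (351 to 435), and COL6A1 was the 1 called member of 10 tested (interaction 0.66 ± 0.10). That gene made up most of the sum, with means of 257.5 CPM in nontargeting and 449 CPM in knockdown neurites. Summed astrocyte and oligodendrocyte markers were at 431 to 502 CPM in knockdown and 314 to 419 CPM in nontargeting neurites, and 1 of 6 tested members was called higher. SLC1A2 alone stood at 361 to 436 CPM in knockdown and 242 to 347 CPM in nontargeting neurites. Summed neural progenitor markers were at 601 to 690 CPM in knockdown neurites, 541 to 617 in nontargeting neurites and 332 to 399 in soma. The part of these marker lists in the results was not tested. In bulk RNA, fewer cells or neurites of a kind and less RNA in each cannot be told apart.

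The target gene was tested first. TARDBP (ENSG00000120948.19, chromosome 1, 11012344 to 11026420, plus strand, hg38) stood at 118, 112, 107, 106 and 110 CPM in nontargeting soma and at 18.7, 18.8, 20.1 and 20.55 CPM in knockdown soma. In neurites it stood at 125.5, 123, 108, 112 and 116 CPM with the nontargeting guide and at 48.5, 36.9, 40.7, 40.3 and 42.6 CPM after knockdown. Every knockdown library lay below every control library of its fraction, and the knockdown libraries of the 2 fractions did not overlap each other. On the log2 scale TARDBP changed by -2.50 ± 0.07 (SE) in soma and by -1.48 ± 0.06 in neurites. The interaction was 1.02 ± 0.09, a 2.03-fold higher neurite to soma ratio (adjusted p = 4.07e-08, edgeR quasi-likelihood test with Benjamini-Hochberg adjustment over all genes tested). Protein was not analysed here.

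Across the transcriptome, 2306 of 22014 genes tested were called for the interaction at adjusted p under 0.05, which is 10.5% of them. The ratio was higher after knockdown for 1278 genes (5.81%) and lower for 1028 (4.67%). Scaled by library size alone, without TMM, 130 genes were called higher and 198 lower, so both the number of calls and the balance between directions depend on the correction for composition. Changes over 2-fold were mostly decreases: 394 called genes fell by more than that in ratio and 77 rose. The knockdown itself was called for 4170 genes in soma (18.9%) and for 5470 in neurites (24.8%).

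Higher ratios came mainly from neurites. Of the 1278 genes, 721 rose in neurites with no call in soma, 258 fell in soma with no call in neurites, 62 did both, and 73 fell in both fractions, less so in neurites. Of the others, 93 rose in both and 71 were called in neither. Lower ratios were the mirror image: 555 of the 1028 genes fell in neurites with no call in soma, 253 rose in soma with no call in neurites, 76 did both, 44 rose in both, 4 fell in both and 96 were called in neither.

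**Figure D1:**
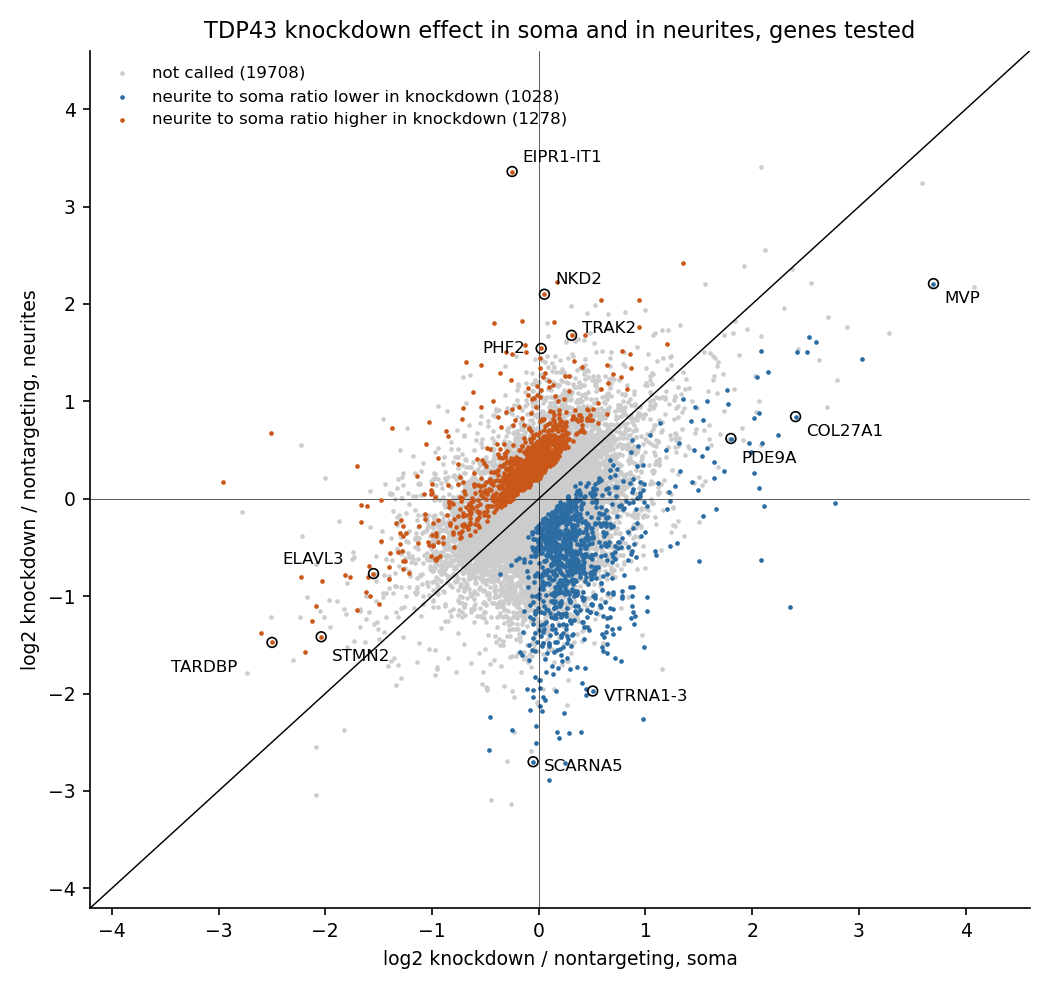
Each point is a gene tested, with its log2 knockdown effect in soma on the x axis and in neurites on the y axis, and the diagonal marks equal effects. Genes called with a higher ratio (1278) lie above the diagonal and those called with a lower ratio (1028) below it, and 2 genes fall outside the axes.

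Several of the increases with the smallest p were in RNAs that had little or no change in soma and rose in neurites. PHF2 (chromosome 9, 93576407 to 93679587, plus strand), a histone demethylase with a PHD finger, stood at 110, 118, 102, 112 and 106 CPM in nontargeting soma and at 108, 116, 111 and 111 CPM in knockdown soma. In neurites PHF2 stood at 111, 105, 97.45, 94.9 and 103 CPM in controls and at 306, 323, 315, 287 and 265 CPM after knockdown. The soma groups overlapped and the neurite groups were separated by a wide gap. The soma effect of PHF2 was 0.02 ± 0.06, the neurite effect 1.54 ± 0.06, and the interaction 1.52 ± 0.08 (adjusted p = 2.54e-12), the smallest p of all genes in this test.

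TRAK2 (chromosome 2, 201377207 to 201451579, minus strand) links mitochondria to kinesin and dynein motors. It was at 77.3, 77.6, 77.1, 74.2 and 71.9 CPM in nontargeting soma and at 92.2, 93.5, 93.3 and 95.3 CPM in knockdown soma. It was at 303, 297, 167, 238 and 241 CPM in nontargeting neurites and at 785, 868, 866, 731 and 756 CPM in knockdown neurites. Groups were separate in both fractions, with a soma effect of 0.31 ± 0.10 (adjusted p = 0.0345) and a neurite effect of 1.68 ± 0.10. TRAK2 was already a neurite-rich RNA in controls, with a log2 ratio of 1.73 ± 0.10, and the ratio reached 3.10 ± 0.11 after knockdown. The interaction was 1.37 ± 0.14 (adjusted p = 6.71e-07).

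BICD2 (chromosome 9, 92711363 to 92764812, minus strand), a dynein adaptor, showed the same order of groups. It was at 68.2 to 79.0 CPM in nontargeting soma and at 76.3 to 82.5 CPM in knockdown soma, and at 501, 461, 402, 344 and 465 CPM in nontargeting neurites. After knockdown the neurite values were 842, 1048, 1027, 1054 and 1071 CPM, all above the controls, with sample 1 lowest. The interaction was 1.112 ± 0.12 (adjusted p = 9.33e-07) on top of a control ratio of 2.56 ± 0.08.

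Other RNAs of this kind were spread over several functions. NKD2, an inhibitor of Wnt signalling through Dishevelled, went from 3.62 to 5.42 CPM in control neurites to 15.6 to 23.1 CPM, with an interaction of 2.05 ± 0.18. MLYCD, the malonyl-CoA decarboxylase that regulates fatty acid oxidation, had 1.233 ± 0.11. TP53INP2, a promoter of autophagy, had 1.07 ± 0.11, and SLC6A17, a transporter of amino acids into synaptic vesicles, had 1.08 ± 0.13. Each of these 4 genes had overlapping groups in soma and separate groups in neurites. The noncoding EIPR1-IT1, annotated as sense intronic, had the highest interaction among the noncoding genes named here, 3.61 ± 0.31, from 0.703 to 0.983 CPM in control neurites to 6.19 to 10.2 CPM, and reads of its host gene's intron cannot be told apart from it.

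In the hnRNPA1 experiment, which used the same design with 24 libraries of its own, the interaction was called for 25 of 22890 genes (0.109%), and 2028 had an unadjusted p under 0.05. A fit of both experiments tested the difference of the 2 interactions, which was called for 668 genes (2.92%), 494 of them higher with TDP43 knockdown and 174 lower. In it PHF2 differed by 1.57 ± 0.12 (adjusted p = 8.05e-14), with -0.03 ± 0.08 for hnRNPA1 knockdown. TRAK2 differed by 1.47 ± 0.22 and BICD2 by 1.49 ± 0.19.

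Known TDP-43 targets fell more often than they rose in each fraction. Of 38 tested genes with reported cryptic splicing or premature polyadenylation after TDP-43 loss, 9 had a higher ratio (23.7%) and 1 a lower ratio (2.63%). All protein-coding genes tested had 8.24% higher and 3.05% lower. The median of the list was 0.07, against 0.04 for protein-coding genes and -0.01 for all genes tested. In soma 20 of the 38 fell and 5 rose, and in neurites 17 fell and 7 rose. Of the 14321 protein-coding genes, 1846 fell and 1531 rose in soma, and 1542 fell and 2560 rose in neurites. Among the called members were ELAVL3, STMN2, IGLON5, INSR, CELF5, ADARB2, TRRAP and UNC13B on the higher side and UNC13A on the lower. Of these higher members, STMN2, ELAVL3, INSR, CELF5, UNC13B and ADARB2 fell in both fractions and less in neurites, IGLON5 fell in soma and rose in neurites, and TRRAP rose in neurites without a call in soma. ADARB2 lost its call without any 1 of 6 libraries (adjusted p 0.0549 to 0.0667) and TRRAP without any 1 of 12 (0.0512 to 0.0692).

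STMN2 encodes stathmin-2, a microtubule regulator needed for axon growth and repair. STMN2 was at 499.9, 511, 544, 472 and 489 CPM in nontargeting soma and at 129, 113, 129.7 and 118 CPM in knockdown soma. In neurites it was at 545, 539, 623, 654 and 621 CPM in controls and at 258, 189.7, 237, 213 and 217 CPM after knockdown. No groups overlapped within a fraction. STMN2 changed by -2.04 ± 0.08 on the log2 scale in soma and by -1.42 ± 0.07 in neurites. Its interaction was 0.62 ± 0.11 (adjusted p = 0.000426), and scaled without TMM it was 0.71 and missed the threshold (adjusted p = 0.061, range over all alternatives 1.84e-07 to 0.061).

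ELAVL3, a neuronal RNA binding protein of the Hu family, was at 254, 289.9, 249, 264 and 249 CPM in nontargeting soma and at 84.4, 92.1, 89.6 and 91.2 CPM in knockdown soma. In neurites ELAVL3 was at 234, 244, 220.3, 222 and 244 CPM in controls and at 155, 139, 137, 129 and 125 CPM after knockdown. The groups were separate in both fractions and the fall was smaller in neurites. The interaction was 0.78 ± 0.09 (adjusted p = 1.88e-06). INSR, the insulin receptor, changed by -1.50 ± 0.05 in soma and by -1.08 ± 0.06 in neurites, with an interaction of 0.41 ± 0.08.

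UNC13A, which primes synaptic vesicles for release, went the other way. It was at 264, 261, 247, 264 and 254 CPM in nontargeting soma, and at 204, 214, 199 and 183 CPM in knockdown soma. In neurites it was at 279, 294, 205, 239 and 272 CPM in controls, and at 151, 143, 152, 152 and 159.5 CPM after knockdown. It fell in both fractions without overlap, by more in neurites. The interaction of UNC13A was -0.40 ± 0.10 (adjusted p = 0.0116), and without TMM it was -0.35 and not called (adjusted p = 0.476, range over all alternatives 0.000395 to 0.476). KALRN, HDGFL2, AGRN, PFKP and CAMK2B, also on this list, had interactions of -0.09, 0.07, 0.25, 0.31 and -0.17 with adjusted p from 0.207 to 0.66 and were not called.

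MASP2 followed TARDBP. It is annotated on the minus strand of chromosome 1 from 11026523 to 11047233, just past the end of TARDBP, and changed by -2.60 ± 0.12 in soma and -1.38 ± 0.11 in neurites (interaction 1.216 ± 0.17, adjusted p = 3.54e-05). No source used here states the strand setting of the counting, so reads past the end of TARDBP and reads of MASP2 cannot be told apart.

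**Figure D2:**
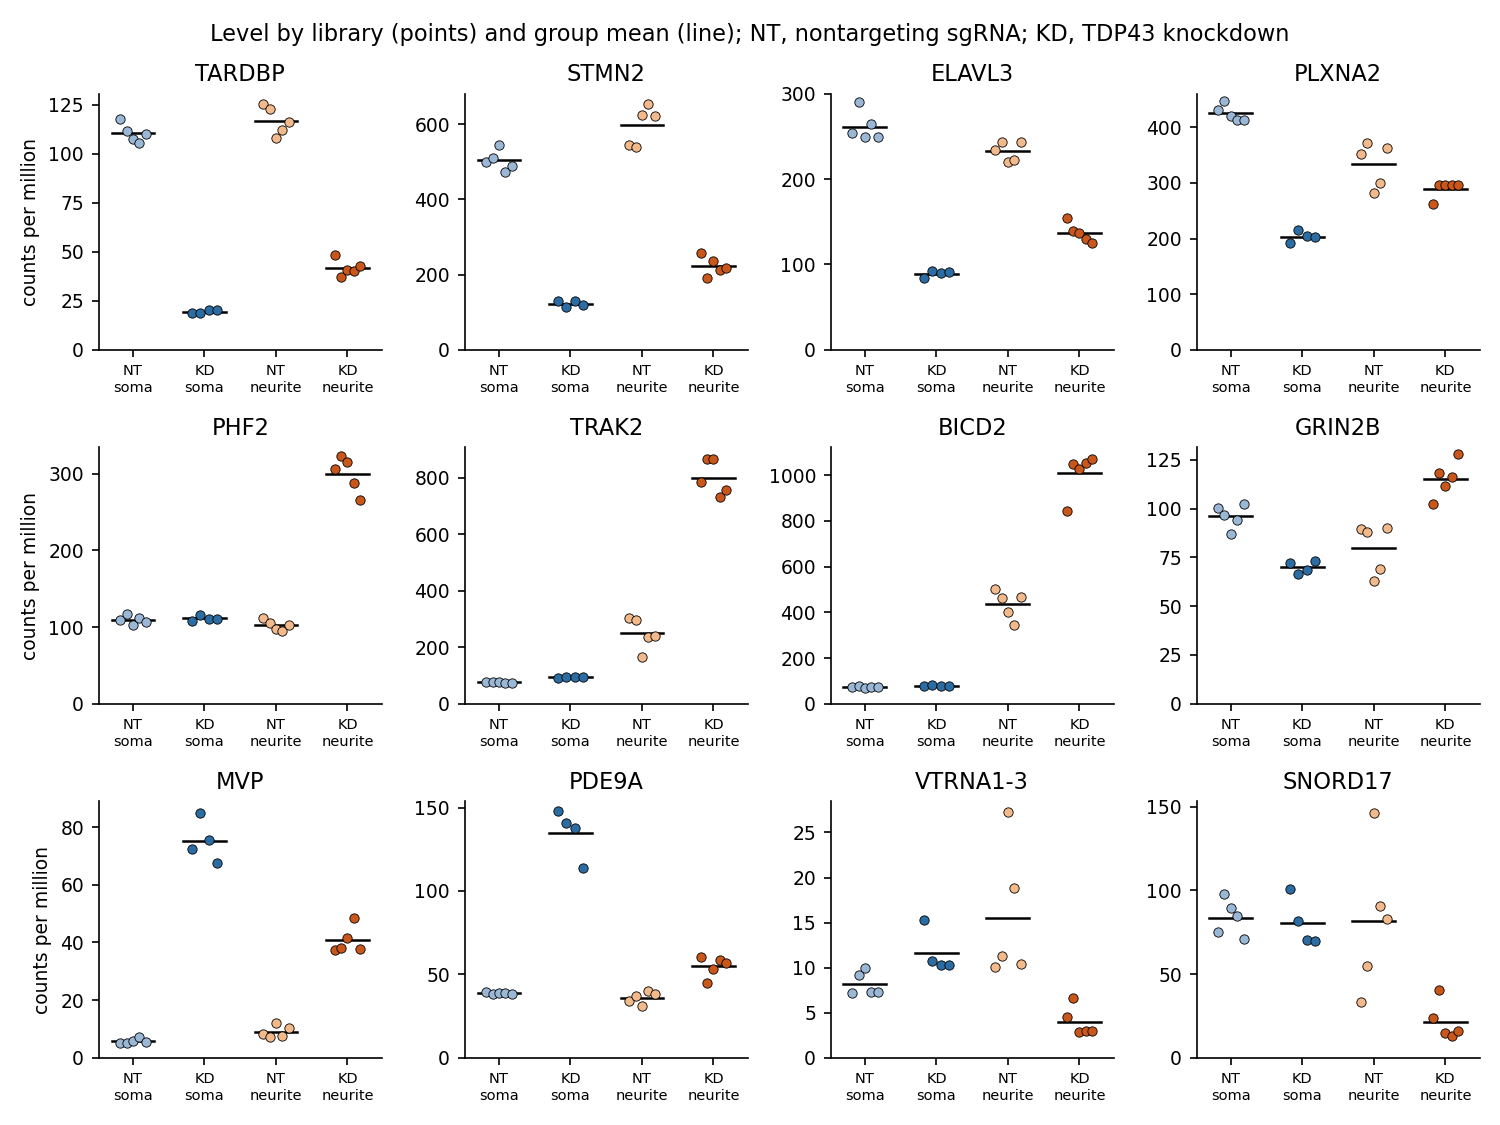
Levels of 12 genes in CPM (y axes from 0) in nontargeting (NT) and knockdown (KD) soma and neurite libraries, with a point per library and a line at each group mean. TARDBP, STMN2 and ELAVL3 fall in both fractions and less in neurites, PHF2, TRAK2 and BICD2 rise in neurites, MVP and PDE9A rise more in soma, and VTRNA1-3 and SNORD17 are lowest in knockdown neurites.

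Protein-coding genes at large gained in ratio more often than they lost. Of 14321 tested, 1180 (8.24%) were higher and 437 (3.05%) lower, with a median of 0.04, and this is the background for the gene lists that follow. For the knockdown effects within a fraction the background is 1531 that rose and 1846 that fell in soma, and 2560 that rose and 1542 that fell in neurites. Without TMM far fewer list members had a higher ratio: 3 of the motor list, 3 of the channels, 1 postsynaptic, 0 presynaptic, 5 axon guidance, 2 cholesterol, 0 mitochondrially encoded and 1 cryptic splicing member. With the 7SL share as a covariate the counts were 7, 6, 6, 5, 10, 4, 9 and 6 in the same order. The excess grew with level. Above a mean of 100 CPM, 487 of 1847 protein-coding genes were higher and 19 lower (median 0.16), whereas at 3 to 10 CPM 70 of 2310 were higher and 95 lower (median -0.04). Precision also grows with level, so the share of calls and the level are not independent. The lists were not matched to the background for level. The motor, presynaptic and postsynaptic lists had 26.1, 23.2 and 29.6% higher (medians 0.14, 0.17 and 0.16), beside 487 of 1847 above 100 CPM. Channels, axon guidance and cholesterol had 30.2, 31.5 and 50% (medians 0.23, 0.20 and 0.25). Whether any list exceeds genes of like level was not tested.

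**Figure D3:**
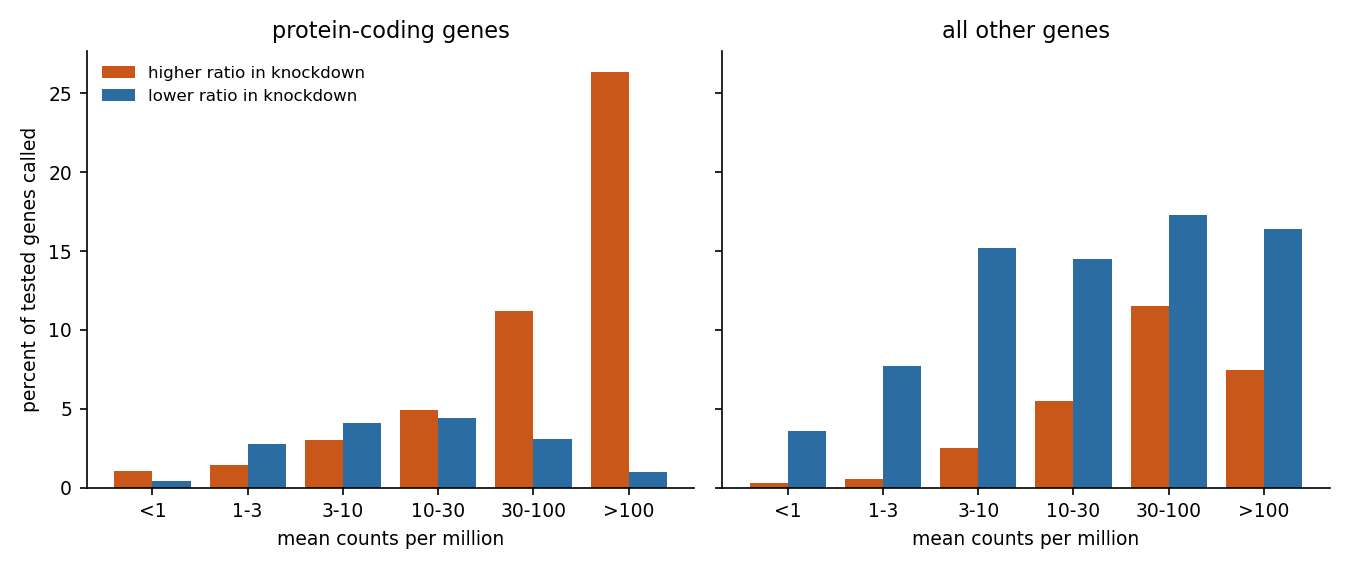
Share of tested genes called with a higher or a lower neurite to soma ratio (y axis, percent) by mean level (x axis, CPM), for protein-coding genes and for all others. Calls of a higher ratio grow with level in protein-coding genes, 487 of 1847 above 100 CPM, while other genes at 3 to 10 CPM have 182 lower and 30 higher of 1199.

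Motor proteins and their adaptors, which carry cargo along microtubules, were among the lists with many calls. Of 46 tested, 12 had a higher ratio and none a lower one, with 19 that rose and 4 that fell in neurites and 2 that rose and 6 that fell in soma. TRAK2 and BICD2 led the list. MAPK8IP3, a kinesin and dynein adaptor, had an interaction of 0.60 ± 0.10, and KIF1C, a kinesin, had 0.62 ± 0.11. TRAK1 (0.47), BICD1 (0.45), KIF1A (0.50), KIF1B (0.42), KIF3B (0.41), KIF3C (0.32), KIF5C (0.37) and KIF21B (0.56) made up the rest.

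Voltage-gated channels had 16 members higher and 1 lower of 53 tested (median 0.23). KCND3, a subunit of A-type potassium channels, was at 22.1 to 27.2 CPM in nontargeting soma and 10.9 to 12.6 CPM in knockdown soma. It was at 25.5 to 32.4 CPM in nontargeting neurites and 20.7 to 25.5 CPM in knockdown neurites, so the groups did not overlap in either fraction, by a narrow margin in neurites (interaction 0.85 ± 0.11). KCNC1, a fast potassium channel, showed instead a neurite rise of 0.71 with 0.05 in soma (interaction 0.66 ± 0.09). The T-type calcium channel CACNA1H (0.54 ± 0.10) also had a higher ratio, and KCNH8 was the lower member (-0.29 ± 0.09), a call that was lost in 21 of 32 alternatives, 13 of them with a single library left out.

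Postsynaptic genes had 16 higher and 1 lower of 54 tested (median 0.16). GRIN2B, an NMDA receptor subunit, was at 100.2, 96.9, 87.2, 94.0 and 102 CPM in nontargeting soma and at 72.3, 66.4, 68.7 and 73.2 CPM in knockdown soma. It was at 89.8, 88.1, 63.0, 68.8 and 90.2 CPM in nontargeting neurites and at 102, 118, 111, 116 and 128 CPM in knockdown neurites. GRIN2B therefore fell in soma (-0.45 ± 0.08) and rose in neurites (0.52 ± 0.08), with no overlap in either fraction and an interaction of 0.97 ± 0.11 (adjusted p = 4.18e-06). The scaffold SHANK1 had 0.64 ± 0.13, the NMDA receptor subunit GRIN2D 0.57 ± 0.11 and the kainate receptor subunit GRIK5 0.51 ± 0.09, and the metabotropic receptor GRM2 was lower (-0.43 ± 0.11). The count of higher members of this list fell to 10 without knockdown soma sample 3, nontargeting neurite sample 5 or knockdown neurite sample 2, each left out alone, and to 9 without knockdown soma sample 4.

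Presynaptic genes had 13 higher and 1 lower, UNC13A, of 56 tested (median 0.17). In soma 20 of them fell and 5 rose, and in neurites 16 fell and 16 rose. The active zone proteins BSN (0.51 ± 0.12) and RIMS3 (0.50 ± 0.09), the adhesion molecule NRXN2 (0.52 ± 0.10) and the fusion clamp CPLX2 (0.48 ± 0.09) had higher ratios. CPLX2 rose in both fractions, by 0.77 in soma and 1.25 in neurites.

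Axon guidance and adhesion genes had 23 higher and 4 lower of 73 tested (median 0.20). PLXNA2, a semaphorin receptor, was at 431, 448, 421, 412.5 and 413 CPM in nontargeting soma and at 192, 216, 204 and 203 CPM in knockdown soma. It was at 353, 372, 283, 301 and 362 CPM in nontargeting neurites and at 263, 296, 297, 296 and 297 CPM in knockdown neurites, where the groups overlapped. PLXNA2 changed by -1.06 ± 0.07 in soma and by -0.21 ± 0.07 in neurites (interaction 0.85 ± 0.10, adjusted p = 2.72e-06). The cadherin CDH4 (0.87 ± 0.13), the adhesion molecule OPCML (0.72 ± 0.12) and the semaphorin receptor PLXNA4 (0.58 ± 0.11) also fell in soma and had higher ratios. CDH4 and PLXNA4 fell less in neurites, and the neurite effect of OPCML, -0.22 ± 0.09, was not called. UNC5A, a netrin receptor, had a lower ratio (-1.12 ± 0.19), as had CDH12 (-0.39), SEMA6A (-0.35) and CDH10 (-0.35). The call of CDH12 was lost in 9 of 32 alternatives, 6 of them with a single library left out, and that of CDH10 in 3, with 2 of that kind. Without knockdown soma sample 3 the count of higher members was 15.

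Cholesterol synthesis genes, which include targets of the sterol sensor system, had 12 higher and none lower of 24 tested (median 0.25). The decarboxylase MVD was at 131, 155, 141, 158 and 155 CPM in nontargeting soma and at 116.5, 123, 116 and 122 CPM in knockdown soma. It was at 52.7, 50.5, 54.3, 54.0 and 54.2 CPM in nontargeting neurites and at 67.3, 64.0, 67.3, 65.0 and 63.8 CPM after knockdown. Neither pair of groups overlapped, with MVD down in soma (-0.31 ± 0.05) and up in neurites (0.30 ± 0.06), and the interaction was 0.61 ± 0.08. SREBF2, the master regulator of the pathway (0.48 ± 0.09), and INSIG1, which retains the sterol sensor in the endoplasmic reticulum (0.46 ± 0.08), rose in neurites without a call in soma. Without knockdown soma sample 3 the count was 7, and in the hnRNPA1 experiment MVD had an interaction of 0.42 ± 0.10 (adjusted p = 0.0821), and the difference between experiments, 0.21 ± 0.15, was not called (adjusted p = 0.522).

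Of 48 secretory pathway genes tested, 34 rose in neurites and 13 in soma, where all protein-coding genes had 2560 and 1531 of 14321, and none fell. Of the 48, 6 had a higher ratio and none a lower one (10 without knockdown neurite sample 1). Among the 6 were the translocon subunit SEC61A1 (0.51 ± 0.08), the disulfide isomerase P4HB (0.49 ± 0.08), the retrieval receptor KDELR2 (0.46 ± 0.09) and the translocon-associated SSR1 (0.40 ± 0.08). The chaperones HYOU1 (0.54 ± 0.09), HSP90B1 (0.46 ± 0.09), HSPA5 (0.40 ± 0.09) and DNAJC3 (0.42 ± 0.12) were among 5 higher members of 36 tested in the stress response list, whose median was -0.06 and whose 1 lower member was PHGDH, a serine synthesis enzyme (-0.70 ± 0.12).

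Mitochondrially encoded proteins, which are made from transcripts inside mitochondria, had a higher ratio for 9 of 13 (median 0.52), and all 13 rose in neurites while none was called in soma. MT-ND6 was at 432, 353, 348, 374 and 349.6 CPM in nontargeting soma and at 539, 460.3, 425 and 348.5 CPM in knockdown soma. It was at 1259, 1090, 891, 1112 and 1131 CPM in nontargeting neurites and at 1774, 2246, 2145, 1542 and 1780 CPM after knockdown, so the soma groups overlapped and the neurite groups did not. Its interaction was 0.54 ± 0.16 (adjusted p = 0.0262), and leaving out knockdown soma sample 4 alone gave an adjusted p of 0.0708, with a range of 2.99e-05 to 0.191 over all alternatives. The count of called members was 2 without knockdown soma sample 3 or without sample 4, 4 without knockdown neurite sample 3, and 5 without knockdown neurite sample 2 or nontargeting soma sample 1. In the hnRNPA1 experiment MT-ND6 had an interaction of 0.23 ± 0.17, and the difference was not called (adjusted p = 0.563).

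Ribosomal proteins had 5 of 79 called higher, which is 6.33% and below the 8.24% of protein-coding genes, with a median of 0.20, and 39 rose in neurites against 1 in soma. Their count was 14 without nontargeting neurite sample 4, the library with the highest 7SL share, and 10 without nontargeting neurite sample 5, and 2 to 7 without each of the other libraries.

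**Figure D4:**
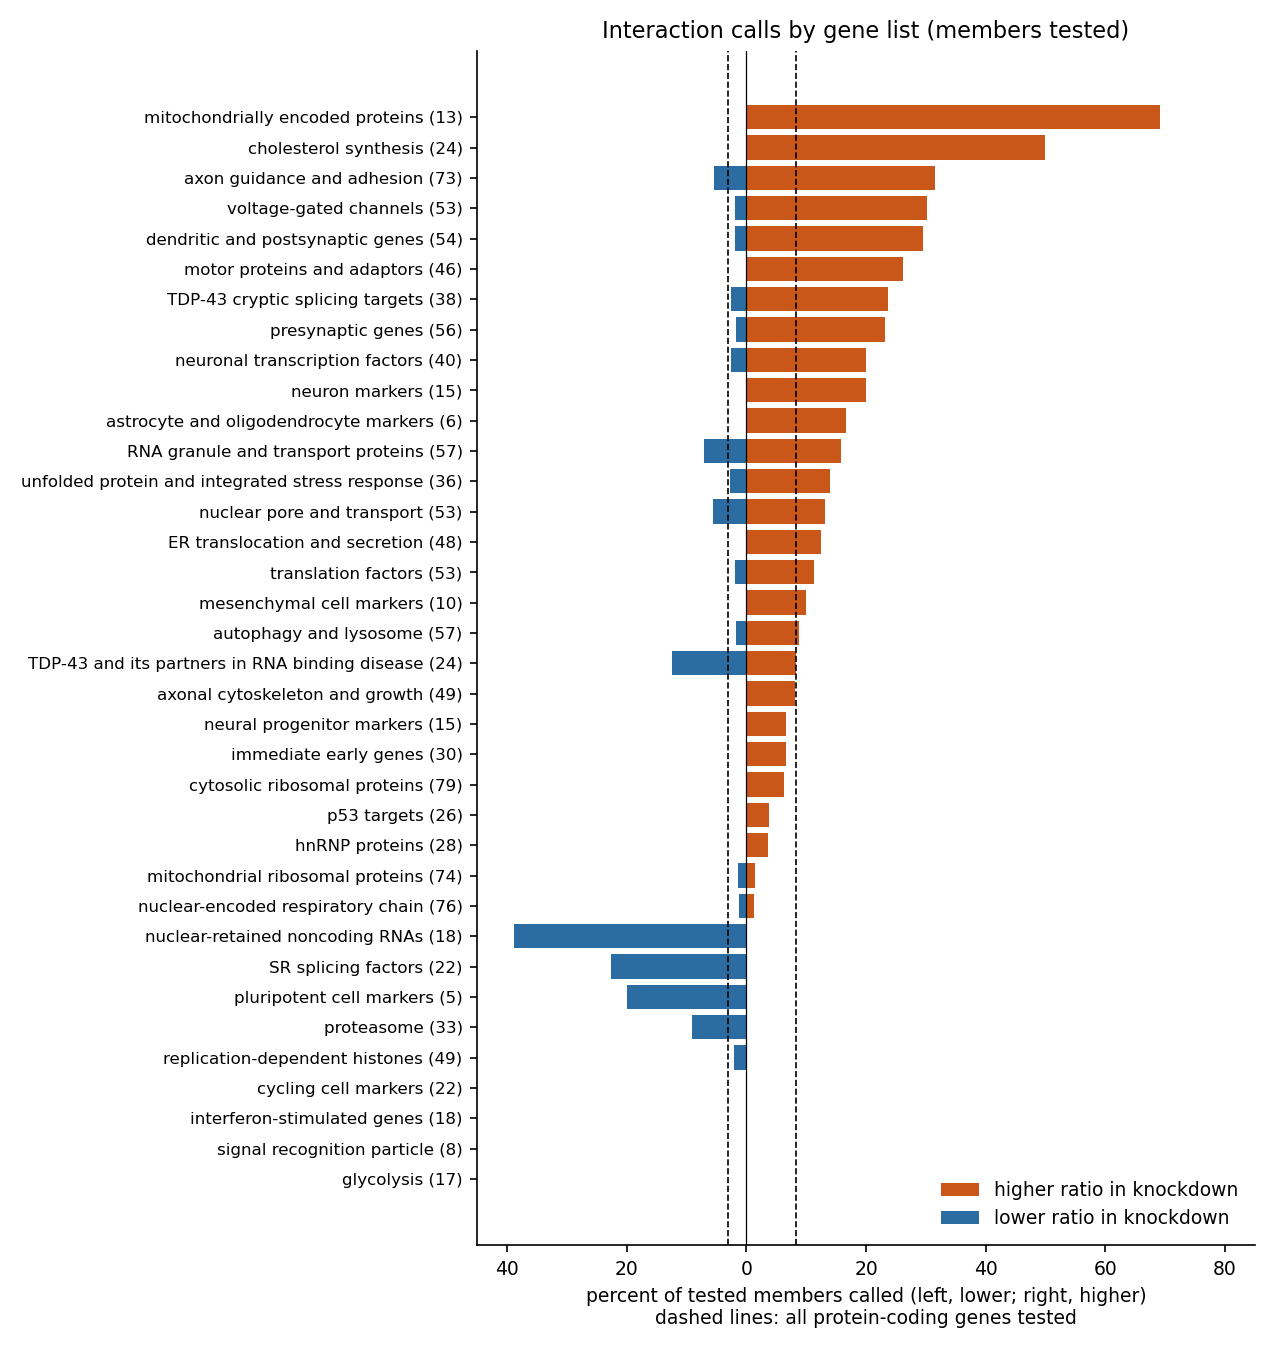
Share of tested members of each gene list called with a higher (right) or lower (left) neurite to soma ratio, in percent (x axis). The number tested is in brackets, and dashed lines mark all protein-coding genes tested, not matched for level. Mitochondrially encoded proteins (9 of 13) and cholesterol synthesis (12 of 24) have the largest shares of higher members, and nuclear-retained noncoding RNAs (7 of 18) the largest share of lower members.

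Among protein-coding genes the strongest decreases were of RNAs that rose in soma. MVP (chromosome 16, 29820394 to 29848039, plus strand), the major vault protein, was at 4.99, 5.24, 5.96, 7.145 and 5.56 CPM in nontargeting soma and at 72.4, 84.9, 75.4 and 67.6 CPM in knockdown soma. It was at 8.22, 7.13, 11.98, 7.41 and 10.3 CPM in nontargeting neurites and at 37.55, 38.1, 41.65, 48.4 and 37.75 CPM after knockdown. The rise was present in every knockdown library and was larger in soma, 3.70 ± 0.10 against 2.21 ± 0.12, which gave an interaction of -1.49 ± 0.16 (adjusted p = 1.76e-06).

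PDE9A, a phosphodiesterase that degrades cyclic GMP, was at 39.3, 38.5, 38.7, 38.9 and 38.1 CPM in nontargeting soma and at 148, 140.5, 138 and 114 CPM in knockdown soma. It was at 34.0, 36.8, 31.2, 39.9 and 38.0 CPM in nontargeting neurites and at 60.7, 44.7, 52.95, 58.6 and 56.8 CPM after knockdown. Groups were separate in both fractions and the interaction was -1.18 ± 0.11 (adjusted p = 6.1e-08). COL27A1, a fibrillar collagen (-1.56 ± 0.28), GNG8, a G protein gamma subunit (-1.51 ± 0.21), and MC1R, the melanocortin receptor (-1.18 ± 0.17), rose in both fractions and more in soma. The neurite groups of GNG8 overlapped, at 2.00 to 3.55 CPM in nontargeting and 3.21 to 4.23 CPM in knockdown libraries. PMEL, a melanosome protein, rose in soma by 1.223 ± 0.10 with 0.07 ± 0.13 in neurites (interaction -1.16 ± 0.16).

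Noncoding genes lost ratio more often than they gained it. Antisense genes had 162 lower and 17 higher of 1785 tested (median -0.31), lincRNAs 93 lower and 17 higher of 1291, and sense intronic genes 35 lower and 6 higher of 288. Over all genes tested 4.67% were lower and 5.81% higher. The shift in median lay at low levels. Genes other than protein-coding had medians of -0.334 under 1 CPM, -0.279 at 1 to 3 CPM and -0.113 at 3 to 10 CPM. At 10 to 30, 30 to 100 and above 100 CPM their medians were 0.0128, -0.00714 and -0.0427. Lower calls were still more frequent there, with 55 lower and 21 higher of 380, 24 and 16 of 139, and 11 and 5 of 67. Nuclear-retained RNAs, a list drawn up for RNAs known to stay in the nucleus, had 7 lower and none higher of 18 tested (median -0.21), against 0 lower without TMM and 4 with the 7SL covariate. These were KCNQ1OT1 (-0.75), FTX (-0.57), SNHG14 (-0.55), MIAT (-0.50), NEAT1 (-0.45), JPX (-0.45) and MALAT1 (-0.39). KCNQ1OT1 was at 202 to 256 CPM in nontargeting soma, 273 to 318 in knockdown soma, 201 to 288 in nontargeting neurites and 179 to 219 in knockdown neurites, so only the soma groups were separate. NEAT1, the scaffold of paraspeckles, rose in soma by 0.40 ± 0.06 with -0.05 ± 0.07 in neurites.

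NCAM1-AS1 (-1.18 ± 0.15), ANK2-AS1 (-1.30 ± 0.18) and MIR137HG, the host transcript of a neuronal microRNA (-0.80 ± 0.10), were among the noncoding genes with the smallest p. For NCAM1-AS1 and ANK2-AS1 reads of the gene on the opposite strand cannot be told apart, because the strand setting is not given. The list of SR splicing factors had 5 lower and none higher of 22 tested, and 0 lower without TMM. They were the kinases CLK1 (-0.47), CLK2 (-0.43), CLK3 (-0.35) and CLK4 (-0.37), which phosphorylate SR proteins, and the splicing factor TRA2A (-0.30). Proteasome genes had 3 lower and none higher of 33, PSMA6 (-0.48), PSMA3 (-0.42) and PSMD14 (-0.28), and none of the 33 was called without knockdown soma sample 3, nontargeting neurite sample 5 or knockdown neurite sample 5, each left out alone. Only 1 was called without nontargeting soma sample 5, knockdown soma sample 4 or knockdown neurite sample 2.

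Small nucleolar RNAs had the lowest median among the RNA classes with more than 1 gene tested, but other short RNAs were also low. Medians were -0.945 for Y RNA genes and pseudogenes (5 of 35 lower) and -0.939 for 7SK (4 of 25). They were -0.782 for snRNA (1 of 77) and -0.632 for 7SL (3 of 70), and none of these genes was called higher. Of 115 tested snoRNA and scaRNA genes, which guide modification of ribosomal and spliceosomal RNA in the nucleolus and in Cajal bodies, 32 had a lower ratio and none a higher one (median -1.09). The 4 sequences shown here are of small RNAs with a lower ratio, and show which families are meant: a vault RNA, a C/D box snoRNA, an H/ACA snoRNA and a scaRNA. They are the DNA sense strand of GENCODE release 29 on GRCh38 (hg38), 5′ to 3′. Capitals mark the C box (TGATGA) and D box (CTGA) in SNORD17 and SCARNA5, the ACA box in SNORA12 and, in VTRNA1-3, a match to the internal promoter element called the B box (GTTCGA, then any 2 bases and C).
VTRNA1-3: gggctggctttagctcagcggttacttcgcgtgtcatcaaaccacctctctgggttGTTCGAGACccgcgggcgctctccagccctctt
SNORD17: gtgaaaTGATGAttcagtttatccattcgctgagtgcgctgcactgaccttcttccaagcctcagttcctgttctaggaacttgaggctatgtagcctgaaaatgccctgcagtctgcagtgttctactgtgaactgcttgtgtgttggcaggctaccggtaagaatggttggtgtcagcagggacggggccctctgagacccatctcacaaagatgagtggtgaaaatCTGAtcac
SNORA12: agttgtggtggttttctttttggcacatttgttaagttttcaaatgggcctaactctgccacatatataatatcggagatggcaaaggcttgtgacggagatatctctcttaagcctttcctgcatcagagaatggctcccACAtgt
SCARNA5: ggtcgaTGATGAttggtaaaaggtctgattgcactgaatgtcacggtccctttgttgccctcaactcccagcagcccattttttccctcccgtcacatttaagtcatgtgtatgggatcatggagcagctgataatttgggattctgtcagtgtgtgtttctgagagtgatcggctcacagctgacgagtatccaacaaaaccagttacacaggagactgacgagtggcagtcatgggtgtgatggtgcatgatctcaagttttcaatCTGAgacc

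VTRNA1-3 lies at chr5:140726158-140726246 (plus strand), SNORD17 at chr20:17962710-17962946 (minus), SNORA12 at chr10:100237156-100237302 (minus) and SCARNA5 at chr2:233275727-233276002 (plus). Both box families were among the losses. Of the 28 lower genes with a sequence, 8 hold TGATGA (28.6%) and 14 end in ACA followed by 3 bases (50.0%), against 37.3 and 41.8% of all 110 tested genes with a sequence. The letters were searched on the RNA strand only, and a match describes a sequence and no more. How well the RNA columns used retain such short RNAs was not measured here.

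VTRNA1-3, a short RNA of the vault particle, was at 7.19, 9.15, 9.96, 7.33 and 7.34 CPM in nontargeting soma and at 15.3, 10.8, 10.3 and 10.3 CPM in knockdown soma. It was at 10.1, 11.25, 27.2, 18.8 and 10.4 CPM in nontargeting neurites and at 4.52, 6.62, 2.91, 2.95 and 2.92 CPM in knockdown neurites. Every knockdown neurite library lay below every control, and the highest control was sample 4. The interaction was -2.48 ± 0.32 (adjusted p = 1.73e-05) and, in the hnRNPA1 experiment, -0.42 ± 0.24, a difference of -2.04 ± 0.37 (adjusted p = 0.000559).

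SNORD17 was at 75.0, 97.8, 89.7, 84.7 and 71.0 CPM in nontargeting soma and at 101, 82.0, 70.6 and 69.5 CPM in knockdown soma. It was at 33.2, 54.5, 146, 90.5 and 82.6 CPM in nontargeting neurites and at 23.8, 40.3, 14.85, 12.9 and 15.95 CPM in knockdown neurites. Here the neurite groups overlapped: nontargeting sample 1 lay below knockdown sample 2. The interaction was -1.91 ± 0.36 (adjusted p = 0.00115), and that of SCARNA5 was -2.65 ± 0.47 (adjusted p = 0.000584), also with overlapping neurite groups. Several of the lower snoRNAs, such as the SNORD3 genes, have near-identical copies between which reads were divided, so their single values are uncertain.

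As a share of all counts, snoRNA and scaRNA genes made up 0.217 to 0.255% in nontargeting soma and 0.216 to 0.295% in knockdown soma. In neurites they made up 0.0725, 0.101, 0.263, 0.179 and 0.138% in controls and 0.0536, 0.0652, 0.0383, 0.0342 and 0.0412% after knockdown, with no overlap. The interaction of the log2 share was -1.68 (exact permutation test of the knockdown labels within each fraction, 2-sided, p = 0.00227, adjusted p = 0.0159 over 7 classes). The null of this test was no knockdown effect in either fraction. The call was lost without knockdown neurite sample 4 (-1.58, exact permutation, adjusted p = 0.0507) and with the sample numbers as a block within guide (-1.64, exact permutation, adjusted p = 0.0833). With that block the 9 same-numbered pairs leave too few arrangements for 1 class alone to pass, so that setting cannot show whether the call holds. The snoRNA and scaRNA share moved with that of 7SL within both neurite groups: it was highest in nontargeting sample 4 and knockdown sample 2, which also had the most 7SL. With the 7SL share as a covariate 7 of the 115 genes were called lower instead of 32, with a median of -0.55, and the part of 7SL in the result was not tested further.

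The 7SL share itself had an interaction of -1.36 (exact permutation p = 0.0503, adjusted 0.088), and its neurite groups overlapped. Mitochondrially encoded proteins had 0.55 (exact permutation p = 0.0477, adjusted 0.088), ribosomal RNA 0.56 (exact permutation p = 0.0208, adjusted 0.0728), ribosomal proteins 0.30 (exact permutation p = 0.122), histones -0.23 (exact permutation p = 0.232) and nuclear-retained RNAs -0.07 (exact permutation p = 0.7). None of these 6 passed after adjustment.

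**Figure D5:**
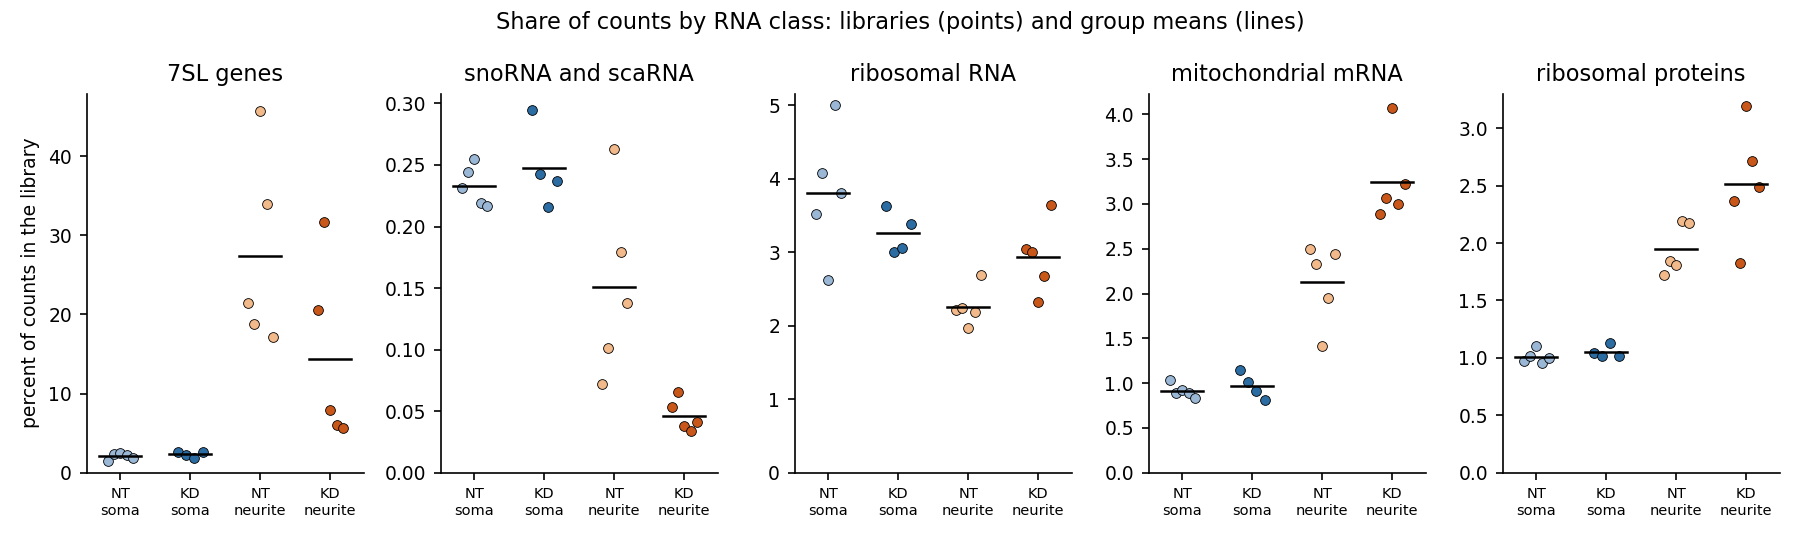
Share of counts per library (y axes, percent) in 5 RNA classes (mitochondrial mRNA is the class of mitochondrially encoded proteins) for nontargeting (NT) and knockdown (KD) soma and neurites, with a point per library and a line at each group mean. The snoRNA and scaRNA share of knockdown neurites (0.0342 to 0.0652%) lies below all other libraries, while the 7SL share of neurites overlaps between guides.

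Since TDP-43 binds UG repeats, 3′ UTRs were searched for TGTGTG (sense strand, non-overlapping matches) in 1 transcript per gene of GENCODE release 29. Of 1151 protein-coding genes with a higher ratio 60.5% held it, against 35.9% of 421 with a lower ratio and 42.6% of 12431 not called. Their 3′ UTRs were also longer, with medians of 1986, 846 and 950 bases. Per kilobase the counts were 0.735, 0.604 and 0.62. Among genes of at least 100 CPM the shares with TGTGTG were 63.8% of 467 higher genes, 44.4% of 18 lower genes and 54.6% of 1320 not called, with 0.789, 0.822 and 0.687 per kilobase. Among 3′ UTRs of 1000 to 3000 bases the shares were 68.3% of 388 higher, 59.0% of 144 lower and 58.1% of 4068 not called, so lower genes of like length did not hold it less often than those not called. These are descriptions, with no test, and length, level and repeats move together.

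The longest TG runs in the 3′ UTRs of 4 genes with a higher ratio are shown, each in a window of 30 bases with the run in capitals. Binding at these runs was not measured here.
TARDBP: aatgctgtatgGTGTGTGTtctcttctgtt
MLYCD: cagttgtgttTGTGTGTGTatgtgtgtatc
SLC6A17: gagctcgggGTGTGTGTGTGcgtgctgtgt
GRIN2B: tacttgactaTGTGTGTGTcccataatcca

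The windows lie at chr1:11023759-11023788 (plus) for TARDBP, chr16:83916343-83916372 (plus) for MLYCD, chr1:110200766-110200795 (plus) for SLC6A17 and chr12:13554527-13554556 (minus) for GRIN2B, on GRCh38. MLYCD held 48 TGTGTG in a 3′ UTR of 11537 bases, SLC6A17 8 in 3758, GRIN2B 12 in 25446 and TARDBP 4 in 3766. PHF2 and TRAK2, which rose in neurites, held none in 3′ UTRs of 1911 and 3336 bases, and ELAVL3 held none in 3200. This says only that these letters are not in these annotated 3′ UTRs. The longest run in PHF2 was GTGTGT, which a search for TGTGTG does not match. NKD2 held 1 TGTGTG in 570 bases and BICD2 2 in 3791.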

How the data were processed

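Total RNA libraries were made from 10 ng of RNA, per the labels' protocols, with 1 version of a kit for WT samples and another for knockdown samples; which of these the nontargeting libraries had is not stated, so a kit difference between guides cannot be told apart from knockdown if there was one. The authors deposited expected counts, 1 table with a value per gene and library for 63241 genes, of which 81.1% of nonzero values are whole (within 0.005). The rest are fractions, so some reads were divided between genes. Per the submitters' processing notes, STAR 2.7.11b, featureCounts of Subread 2.0.6 and hg38 were used. Annotation release, strand setting and treatment of reads with several positions are details not given in the sources used here. Table columns were matched to samples by library name. Counts were rounded for the tests. Names came from a table of gene names (62666 matched), types, positions and sequences from GENCODE release 29 (58228 matched), with 393 types from RefSeq.

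edgeR 4.0.16 (R 4.3.3) was fitted to the 19 libraries with filterByExpr, TMM, 1 coefficient per group and quasi-likelihood tests, 2-sided, with Benjamini-Hochberg adjustment over the 22014 genes. Standard errors follow log2 values after ±. On data simulated from these libraries (21749 genes), 52.2% of 1.5-fold, 71.6% of 2-fold and 98.5% of 4-fold interactions were called, and 4.52% of 155 calls were in error. The simulation changed few genes, in both directions, and drew each gene independently. It held no variation of the 7SL share between libraries of a group, so its error rate does not carry over to the 2306 calls. Libraries of a group differed beyond counting noise in all 36 pairs (chi-square per degree of freedom 3.43 to 161). Named genes are TARDBP, called members of the cryptic splicing list and 10 of its best-known members, the 15 largest and 5 smallest-p calls in each direction with at least 5 CPM in a group, up to 4 members per list and direction, and 5 noncoding genes per direction. SNORD17, SCARNA5, MT-ND6, the list members named beyond these, the genes shown by library and the genes whose sequences are shown were chosen after their values were seen. Members and lists were chosen with earlier results of these data known. Precision of counts follows depth, and no count intervals are given since reads are not independent molecules. Alternatives were other scalings (library sizes, RLE), filters, DESeq2 1.42.0, limma-voom (limma 3.58.1), sample numbers as blocks, a 7SL covariate, and each library left out. Some results are not reported here.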

Additional observations from a re-analysis of the deposited data

Results flagged for a closer look

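The following results differed between groups, for single genes by a test of the difference itself. For the share of counts the null of the test was no knockdown effect in either fraction. The knockdown effect differed between neurites and soma for 2306 genes, and this fraction-dependent effect differed between the TDP43 and hnRNPA1 experiments for 668 genes. The share of snoRNA and scaRNA genes also differed, with an interaction of -1.68 on the log2 scale, a call that was lost without knockdown neurite sample 4 (exact permutation, adjusted p = 0.0507) and with a block within guide (0.0833).

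In 116 groups of 4 or 5 libraries (22 genes and 7 RNA classes in 4 groups each), 6 held a library set apart from the rest of its group by Dixon's ratio, and chance gives about 1 in 20. In 5 of the 6 the library set apart had sample number 1, but in different groups: knockdown neurites, nontargeting neurites and knockdown soma. Whether equal numbers link libraries of different groups is not stated. BICD2 was at 842 CPM in knockdown neurite sample 1, against 1027 to 1071 in the others. PLXNA2 was at 263 CPM in the same library, against 296 to 297. EIPR1-IT1 was at 0.983 CPM in nontargeting neurite sample 1, against 0.703 to 0.753. VTRNA1-3 was at 15.3 CPM in knockdown soma sample 1, against 10.3 to 10.8. Nuclear-retained noncoding RNAs were 0.567% of counts in that library, against 0.495 to 0.507%. Mitochondrially encoded proteins were 4.07% of counts in knockdown neurite sample 3, against 2.89 to 3.22%.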

How the results depend on the processing

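The scaling mattered most. With library sizes and no TMM, 328 genes were called (130 higher, 198 lower), 315 of them shared with the 2306. With the 7SL share as a covariate 1150 were called (673 higher, 477 lower), 1002 of them shared. Under the other settings the number of calls was within 1.5 times the main number, and in none of the settings did a shared call have the opposite sign. Leaving out each library in turn gave 1638 to 2484 calls, 886 to 1375 higher and 752 to 1109 lower. Without both neurite libraries with most 7SL, an alternative chosen after seeing the data, there were 2219. Of 154 named genes called, 49 kept call and sign in every setting run, PHF2, TRAK2, BICD2, MVP and TARDBP among them. How depth bears on the calls of low genes was not tested.

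Whether the sample numbers pair soma and neurite libraries is not stated. Deviations of same-numbered soma and neurite libraries of a guide from their group means correlated by -0.084 to 0.085 over 9 pairs. Differently numbered libraries correlated by -0.15 to 0.096, so these values cannot settle whether libraries were paired. With the numbers as a replicate block, 1946 genes were called across the 4 groups and 2230 within guide. With the replicate block within guide the snoRNA and scaRNA share gave -1.64 (exact permutation, adjusted p = 0.0833). The 9 pairs leave too few arrangements for 1 class alone to pass there. Over single libraries left out this share gave -1.91 to -1.44, with exact permutation adjusted p to 0.0507 without knockdown neurite sample 4. The 7SL share gave -1.74 to -1.11, mitochondrially encoded proteins 0.411 to 0.635 and ribosomal RNA 0.457 to 0.69. Without knockdown neurite sample 2 the 7SL share passed at exact permutation adjusted p = 0.0419, as did mitochondrially encoded proteins without knockdown soma sample 1 (0.0412) and ribosomal RNA without nontargeting soma sample 4, knockdown soma sample 1, nontargeting neurite sample 6 or knockdown neurite sample 3 (0.00595 to 0.0485). Mitochondrially encoded proteins passed on the linear scale, 1.07 percentage points (exact permutation, adjusted p = 0.0258). The cause of these changes was not tested.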

Other observations

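Several gene groups were not described above. With 10.5% of all genes called, no member was called for the interaction among 17 glycolysis genes, 18 interferon-stimulated genes, 8 signal recognition particle proteins and 22 cycling cell markers. The nuclear-encoded respiratory chain had 1 higher and 1 lower of 76 tested (median 0.08) and mitochondrial ribosomal proteins 1 and 1 of 74 (median -0.02), beside 9 of 13 for the proteins encoded in mitochondria. Nuclear pore and transport genes had 7 higher and 3 lower of 53, led by the near-identical pair POM121C (0.69 ± 0.09) and POM121 (0.61 ± 0.08), whose reads may be divided between them. Neuronal transcription factors had 8 higher and 1 lower of 40 (4 higher without nontargeting soma sample 2 or knockdown soma sample 3), with NEUROD2 at 0.59 ± 0.10 and NEUROD1 at -0.62 ± 0.16.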
